A study of Mus musculus with 6 samples.

Results

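Apoe, Abca1, Abcg1, Nr1h3, Srebf2, Lpl, Fabp5 and Plin2 are 8 genes of cholesterol and lipid handling, taken by symbol from the 23420 genes counted in RNA sequencing of mouse thymic dendritic cells. Each was described across 3 sorted groups of 2 libraries each, all from wild-type mice. YG+ pDCs were plasmacytoid dendritic cells (pDCs, gated as CD11c low and B220+) that carried yellow-green (YG) microspheres. They came from the thymus of mice with tumours of MC38, a mouse colon carcinoma line. Microspheres were injected into the tumours after 12 days of growth, and the cells were sorted 2 days later (MC38 with YG for 2 weeks, per the labels). PBS pDCs came from the thymus of mice given PBS (2 weeks, per the labels) and were sorted by the same pDC gate. PBS Sirpa+ DCs were conventional dendritic cells, gated as CD11c high and Sirpa+, from PBS mice. YG+ and PBS pDCs therefore differed in the tumour, the injection and the sort on microspheres together, and these cannot be told apart. No label ties the 2 libraries of a group to different animals. The p-values therefore speak of the spread among these 6 samples, and that spread may be technical.

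A cell keeps its cholesterol within bounds through a pair of transcription factor systems. When sterols are scarce, SREBP2 (encoded by Srebf2) is released from its membrane anchor and turns on genes of cholesterol synthesis and uptake. When oxysterols build up, liver X receptors (LXRs, among them LXR alpha encoded by Nr1h3) turn on export genes. Among these are the transporters Abca1 and Abcg1 and, in macrophages, the lipid carrier Apoe. Macrophages and dendritic cells that take up dying cells load lipid from them, and the thymus is a tissue in which many cells die and are cleared.

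Read counts in genes ran from 177844 to 713966 per library, which is 0.842% to 3.36% of the uniquely placed reads. PBS pDC replicate 1 had the fewest, and the calls of the 8 genes are given with and without it. Levels are given as normalised read count in CPM, the count scaled to the TMM-adjusted gene total. A count of 0 allows a level of up to 4.21 to 19.1 CPM, depending on the library, at 3 counts. Floors and intervals cover counting error only. The 10 pDC markers summed to 5238 and 7306 CPM in the YG+ pDCs, 7099 and 7587 CPM in PBS pDCs, and 1020 and 1174 CPM in Sirpa+ DCs. All 10 were detected in each pDC library, and Ly6d was at 0 in both Sirpa+ DC libraries. Sirpa itself averaged 349 ± 60.8 CPM in YG+ pDCs, 259 ± 86 CPM in PBS pDCs and 662 ± 122 CPM in Sirpa+ DCs (SD, n = 2 each). The 9 Sirpa+ conventional DC markers, Sirpa among them, summed to 1608 and 2066 CPM in Sirpa+ DCs. They summed to 1249 and 1283 CPM in YG+ pDCs and to 931 and 1215 CPM in PBS pDCs. Of 8 tested in PBS pDCs against Sirpa+ DCs, edgeR called 1 lower (Zbtb46) and 1 higher (Clec10a). Of all genes tested, 6.89% were called lower and 4.54% higher. B cell markers summed to 603 to 721 CPM in the 4 pDC libraries and to 16.9 and 17.9 CPM in Sirpa+ DCs.

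In PBS pDCs against Sirpa+ DCs, Apoe, Fabp5, Plin2 and Nr1h3 fell (4 of 8, where 6.89% of all 8141 genes tested were called lower), and 0 of 8 rose (4.54% of all genes did). In YG+ pDCs, both libraries lay above both PBS pDC libraries for 8 of 8 genes, an arrangement found in 26.5% of all genes tested. For Srebf2 this depended on the scaling, at 202 and 206 CPM against 201 CPM in PBS pDC replicate 2. As a share of gene counts, that library (0.021%) lay above both YG+ pDC libraries (0.0202% and 0.0203%). None of the 8 passed the test between YG+ and PBS pDCs, and neither did any other gene by edgeR (0% of genes tested). At an unadjusted p under 0.05 were 11.4% of genes, and DESeq2 called 45 genes, none of the 8. The count of 0 depended on the settings, since edgeR called 870 genes without PBS pDC replicate 2 (0 of the 8) and 141 without a filter on low counts (Lpl among them). Against Sirpa+ DCs, YG+ pDCs were called lower for Fabp5 only (1 of 8, where 4.09% of all genes were called lower). All 8 genes passed the filter on low counts. Calls were made by edgeR's quasi-likelihood test at an adjusted p under 0.05, with Benjamini-Hochberg adjustment over all genes tested. In sorted bulk RNA, fewer cells of a type and less RNA per cell cannot be told apart.

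**Figure D1:**
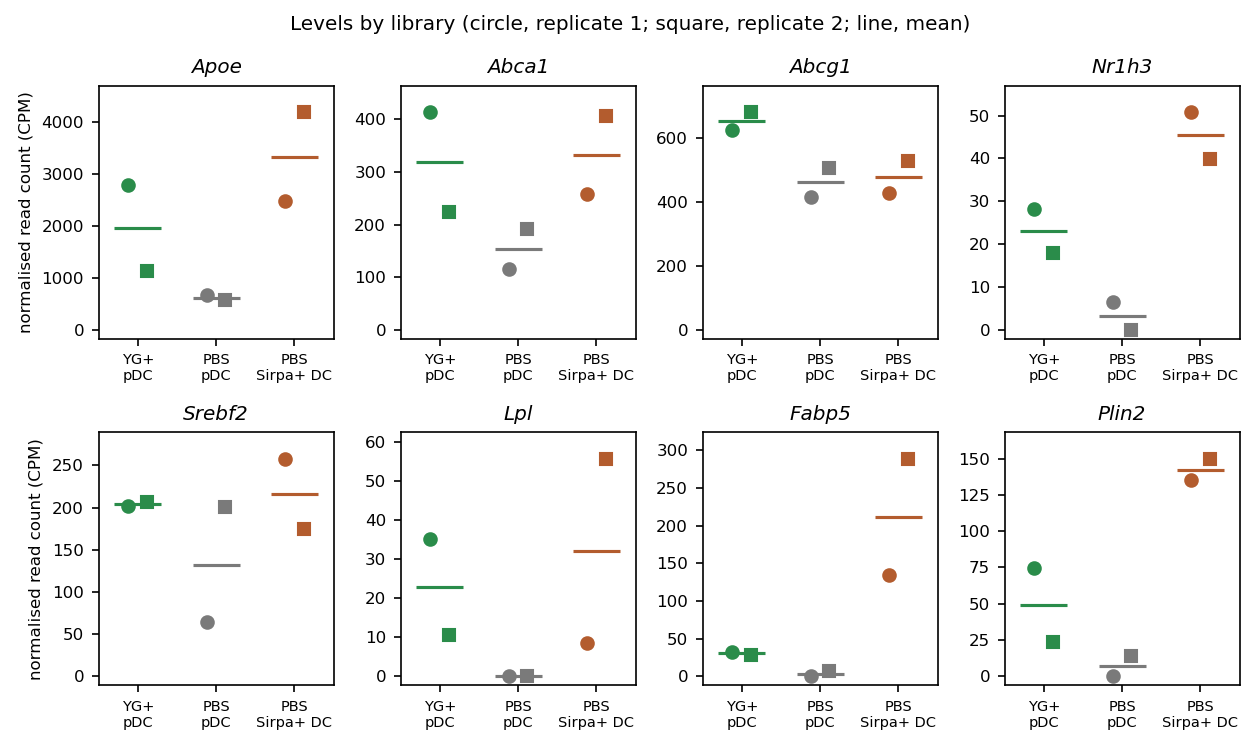
Normalised read count (CPM, linear axes that include 0) of the 8 genes in each of the 6 libraries (YG+ pDC, PBS pDC and PBS Sirpa+ DC, from left to right). Circles are replicate 1, squares replicate 2 and lines the mean of 2 libraries. PBS pDCs have the lowest mean in every panel, and Lpl is at 0 in both PBS pDC libraries.

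Apoe encodes apolipoprotein E, which takes up exported cholesterol and carries it between cells. It lies on chromosome 7 (GRCm38, 19696109 to 19699188, minus strand) and is protein-coding, as are the other 7 genes. Its level was 2777 and 1134 CPM in the YG+ pDCs, 670 and 569 CPM in PBS pDCs, and 2471 and 4185 CPM in Sirpa+ DCs. The groups of pDCs did not overlap, YG+ pDC replicate 1 lay within the range of Sirpa+ DCs, and YG+ pDC replicate 2 lay below them. Apoe fell in PBS pDCs against Sirpa+ DCs, with a log2 difference of -2.43 ± 0.54 (SE; edgeR adjusted p = 0.016), and without Sirpa+ DC replicate 2 this was no longer called (adjusted p = 0.154). The log2 difference of YG+ pDCs from PBS pDCs was 1.66 ± 0.53 (edgeR adjusted p = 0.315) and became 0.89 ± 0.76 without YG+ pDC replicate 1. From Sirpa+ DCs it was -0.77 ± 0.51 (edgeR adjusted p = 0.406). Apoe made up 66.3% and 48.8% of the counts of the 8 genes in YG+ pDCs, 52.8% and 38.2% in PBS pDCs and 66% and 71.8% in Sirpa+ DCs. The genes beside it, Apoc1, Apoc2 and Apoc4, which encode smaller apolipoproteins of the same cluster, had at most 9 counts in a library.

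Abca1 encodes the transporter that hands cholesterol and phospholipid to lipid-poor apolipoproteins (chromosome 4, 53030787 to 53159895, minus strand). The 2 libraries of each group read 414 and 225 CPM in the YG+ pDCs, 115 and 192 CPM in PBS pDCs, and 258 and 407 CPM in Sirpa+ DCs. PBS pDCs lay below both other groups, which overlapped each other. None of the 3 differences passed the test. The log2 difference of YG+ pDCs from PBS pDCs was 1.03 ± 0.48 (SE; edgeR adjusted p = 0.452), and that of PBS pDCs from Sirpa+ DCs was -1.09 ± 0.49 (edgeR adjusted p = 0.201). YG+ pDCs and Sirpa+ DCs differed by -0.06 ± 0.47, less than the spread within either group.

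Abcg1 encodes a transporter that exports cholesterol to mature lipoprotein particles (chromosome 17, 31057675 to 31117988, plus strand). It varied least of the 8 genes, at 625 and 680 CPM in the YG+ pDCs, 415 and 507 CPM in PBS pDCs, and 427 and 528 CPM in Sirpa+ DCs. The YG+ pDC libraries were the highest of the 6, and PBS pDCs and Sirpa+ DCs overlapped. The log2 differences of YG+ pDCs were 0.50 ± 0.40 from PBS pDCs and 0.45 ± 0.40 from Sirpa+ DCs (SE; edgeR adjusted p = 0.687 and 0.552). PBS pDCs differed from Sirpa+ DCs by -0.05 ± 0.40, a sign that turned without scaling factors (0.02).

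Nr1h3 encodes LXR alpha, the oxysterol receptor (chromosome 2, 91184061 to 91202834, minus strand). It shares an exon with Gm13783 on the same strand, so part of its reads may have been set aside as ambiguous. Its level was 28.1 and 17.9 CPM in the YG+ pDCs, 6.38 and 0 CPM in PBS pDCs, and 50.8 and 39.9 CPM in Sirpa+ DCs. The 3 groups did not overlap, with YG+ pDCs between the other 2. There were 30 reads in the YG+ pDC libraries together, 1 read in PBS pDCs (in replicate 1) and 32 reads in Sirpa+ DCs. The ratio of counts per scaled gene total was 13.9 for YG+ over PBS pDCs (95% exact counting interval 2.31 to 567) and 0.0392 for PBS pDCs over Sirpa+ DCs (0.000962 to 0.234). Nr1h3 was called lower in PBS pDCs than in Sirpa+ DCs (edgeR adjusted p = 0.0233). It was called also without PBS pDC replicate 1 (0.00482), but not without PBS pDC replicate 2 (0.112), Sirpa+ DC replicate 1 (0.112) or Sirpa+ DC replicate 2 (0.126). Between YG+ pDCs and PBS pDCs it was not called (edgeR adjusted p = 0.315), and without PBS pDC replicate 1 no read is left in PBS pDCs to give a ratio. YG+ pDCs differed from Sirpa+ DCs by -0.93 ± 0.63 on the log2 scale (SE; edgeR adjusted p = 0.414).

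Srebf2 encodes SREBP2 (chromosome 15, 82147181 to 82205379, plus strand). It stood at 202 and 206 CPM in the YG+ pDCs, 63.8 and 201 CPM in PBS pDCs, and 258 and 175 CPM in Sirpa+ DCs. PBS pDC replicate 1 alone was low, with 10 reads. Replicate 2 lay just under the YG+ pDC libraries in CPM, though not as a share of gene counts. The log2 difference of YG+ from PBS pDCs was 0.54 ± 0.51 (SE; edgeR adjusted p = 0.735) and became 0.01 ± 0.39 without PBS pDC replicate 1. PBS pDCs differed from Sirpa+ DCs by -0.62 ± 0.51 (edgeR adjusted p = 0.526). Without PBS pDC replicate 1 this was -0.07 ± 0.40, and without PBS pDC replicate 2 it was -1.79 and called (adjusted p = 0.0412). YG+ pDCs and Sirpa+ DCs differed by -0.08 ± 0.50.

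An intron of Srebf2 holds Mir33, whose microRNA miR-33 is known to lower Abca1 and, in mice, Abcg1. The mature miR-33-5p is shown because its seed (bases 2 to 8, in capitals) can be looked for in these genes. It lies at chr15:82198127-82198147 on the plus strand (RefSeq, GRCm38.p6).
mmu-miR-33-5p: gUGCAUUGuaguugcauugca
The letters that pair with the seed, CAATGCA, occur 3 times in the annotated 3′ UTR of Abca1 and 2 times in that of Abcg1, and 0 times in those of the other 6 genes. At least 3 matches occur in 0.0686% of 21877 genes and at least 2 in 0.631%. The matches lie close together within each UTR, at chr4:53033783-53033812 (minus strand) in Abca1 and chr17:31114998-31115022 (plus strand) in Abcg1, and are given in capitals 5′ to 3′ on the gene's strand. In Abca1 the first and second matches overlap.
Abca1 sites: tattCAATGCAATGCActtCAATGCAacga
Abcg1 sites: aacgCAATGCAacgCAATGCAgaca
The Mir33 gene had 0 counts in all 6 libraries. The libraries were made from total RNA for gene counts, and mature miR-33 was not measured.

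The set of RefSeq promoters used here held 5 of the 8 genes by symbol (not Fabp5, Abcg1 and Lpl). The 250 bases before the RefSeq start of Abca1 and of Srebf2 are shown because they hold letters like the binding motifs of the sterol-sensing systems described above. In Abca1 (chr4:53159896-53160145, minus strand) capitals mark an E-box (CACGTG), a match to the LXR response element with 3 mismatches, and a TATA box (TATAAA).
Abca1 upstream: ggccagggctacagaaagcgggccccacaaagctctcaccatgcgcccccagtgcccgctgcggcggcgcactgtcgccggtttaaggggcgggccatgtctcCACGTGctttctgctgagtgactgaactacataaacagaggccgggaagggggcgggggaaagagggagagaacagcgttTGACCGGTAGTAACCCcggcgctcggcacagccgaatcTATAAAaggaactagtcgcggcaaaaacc
In Srebf2 (chr15:82147019-82147268, plus strand; the GENCODE start given above lies within this stretch, before the RefSeq start) capitals mark a match to the sterol regulatory element with 1 mismatch.
Srebf2 upstream: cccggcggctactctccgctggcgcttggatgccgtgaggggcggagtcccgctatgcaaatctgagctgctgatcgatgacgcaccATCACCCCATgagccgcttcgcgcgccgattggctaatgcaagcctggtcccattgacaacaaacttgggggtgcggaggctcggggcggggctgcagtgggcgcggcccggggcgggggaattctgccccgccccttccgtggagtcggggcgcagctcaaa
The motifs searched on both strands were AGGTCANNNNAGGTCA for LXR with up to 3 mismatches in its fixed letters, found in 21.9% of 32851 mouse promoters, and the sterol regulatory element with up to 1 mismatch, found in 1.95%. CACGTG was found in 7.15% and TATAAA in 13.6%. The LXR match of Abca1 is on the minus strand of the gene, 67 to 52 bases before the start. The sterol element of Srebf2 lies 163 to 154 bases before it. AGGTCANAGGTCA, the PPAR response element with up to 2 mismatches, was found in the Plin2 promoter (3.86% of promoters), 225 to 213 bases before the start. A match is a description of the letters and was not tested for binding.

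Lpl encodes lipoprotein lipase, which frees fatty acids from circulating triglyceride and is secreted by macrophages, muscle and fat (chromosome 8, 68880491 to 68907448, plus strand). Its level was 35.1 and 10.7 CPM in the YG+ pDCs, 0 and 0 CPM in PBS pDCs, and 8.46 and 55.8 CPM in Sirpa+ DCs. These rest on 25 and 6 reads in YG+ pDCs and 2 and 28 reads in Sirpa+ DCs. PBS pDCs had none, and the other groups overlapped across a wide spread. Lpl was not called between YG+ and PBS pDCs (edgeR adjusted p = 0.318). Over a floor of 3 counts in the PBS pDC group, the YG+ pDC mean was 4.5-fold higher, and YG+ pDC replicate 2 alone was 2.1-fold higher. This bound takes the YG+ pDC level as exact, and the 95% exact counting interval of the ratio starts at 3.67. Between PBS pDCs and Sirpa+ DCs Lpl missed the threshold (edgeR adjusted p = 0.0513). The Sirpa+ DC mean was 6.31-fold over the same floor, a bound of the same kind, and the exact counting interval starts at 6.1-fold. This difference passed in 9 of 17 settings, among them the fit without PBS pDC replicate 1. Without Sirpa+ DC replicate 2 the adjusted p was 0.44, and the 2 reads left in Sirpa+ DCs are under the floor, so the bound rests on that library. Gpihbp1, which holds lipoprotein lipase on capillary walls, was at 0 in all 6 libraries.

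Fabp5 encodes a cytosolic fatty acid binding protein common in macrophages and skin (chromosome 3, 10012548 to 10016607, plus strand). Of its transcript's 50-base windows, 21.1% also occur in 5 other genes, among them Fabp5l2, so its counts are uncertain. Fabp5 stood at 32.3 and 28.6 CPM in the YG+ pDCs, 0 and 6.94 CPM in PBS pDCs, and 135 and 289 CPM in Sirpa+ DCs. The 3 groups did not overlap, with YG+ pDCs between the other 2 and far closer to PBS pDCs in CPM. The 2 PBS pDC libraries held 3 reads together, so their ratios are wide. The ratio of counts per scaled gene total was 6.02 for YG+ over PBS pDCs (95% exact counting interval 1.92 to 30.5) and 0.0212 for PBS pDCs over Sirpa+ DCs (0.00434 to 0.0631). Fabp5 fell in PBS pDCs against Sirpa+ DCs (edgeR adjusted p = 0.0016) and was the one gene of the 8 called there whichever library was left out. Its fitted log2 difference was -5.37 ± 0.75 and became -4.68 ± 0.81 without Sirpa+ DC replicate 2. It also fell in YG+ pDCs against Sirpa+ DCs, with a log2 difference of -2.81 ± 0.52 (SE; edgeR adjusted p = 0.0101). That call was lost without YG+ pDC replicate 2 (0.076) or Sirpa+ DC replicate 2 (-2.14, adjusted p = 0.123). YG+ and PBS pDCs were not called apart (edgeR adjusted p = 0.315).

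Plin2 encodes perilipin 2, the coat protein of lipid droplets outside fat tissue (chromosome 4, 86648386 to 86670060, minus strand). Plin2 read 74.4 and 23.3 CPM in the YG+ pDCs, 0 and 13.9 CPM in PBS pDCs, and 135 and 150 CPM in Sirpa+ DCs. The 3 groups did not overlap, with YG+ pDCs between the other 2, and the YG+ pDC libraries differed 3.2-fold from each other. PBS pDC replicate 1 had no Plin2 read and replicate 2 had 6. Plin2 fell in PBS pDCs against Sirpa+ DCs, with a log2 difference of -3.85 ± 0.79 (SE; edgeR adjusted p = 0.0111), though not without Sirpa+ DC replicate 1 (0.0536) or replicate 2 (0.0858). Without PBS pDC replicate 1 it was -3.34 ± 0.72 and still called (0.00555). The log2 difference of YG+ pDCs was 2.33 ± 0.82 from PBS pDCs (edgeR adjusted p = 0.333). It was 1.30 without YG+ pDC replicate 1, 2.98 without YG+ pDC replicate 2 and 1.83 without PBS pDC replicate 1. Without PBS pDC replicate 2 no Plin2 read was left in PBS pDCs, and the fitted value (7.45) depends on the prior count. From Sirpa+ DCs YG+ pDCs differed by -1.52 ± 0.59 (edgeR adjusted p = 0.152), which was called without PBS pDC replicate 1 (0.0275) or replicate 2 (0.0293).

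**Figure D2:**
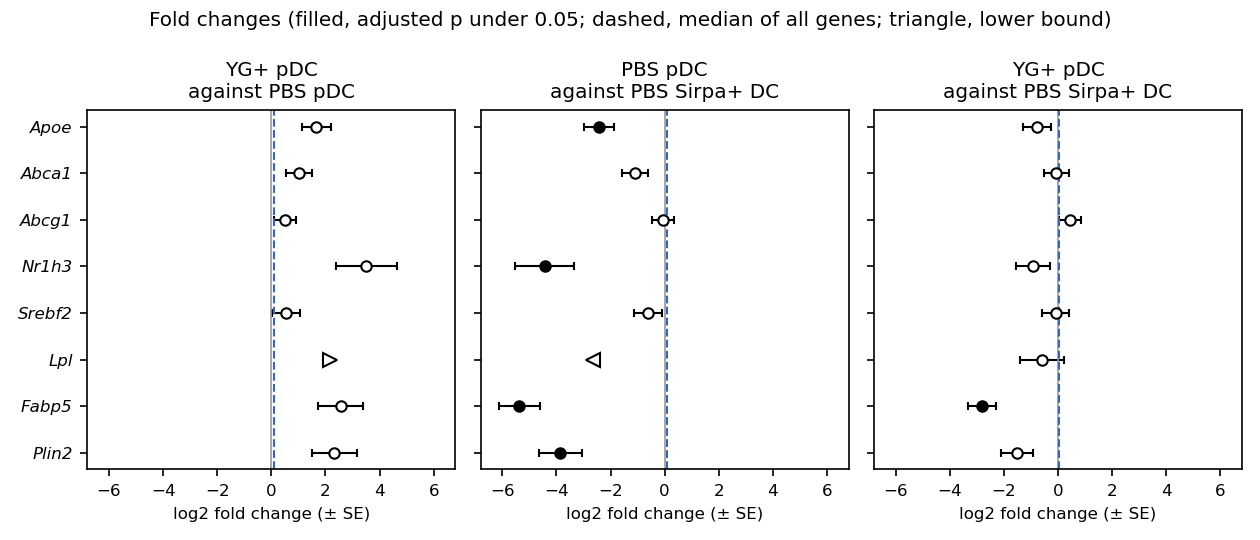
Log2 fold change with its standard error for the 8 genes in each comparison, from 1 edgeR fit of all 6 libraries. Filled points passed an adjusted p under 0.05, the dashed line is the median of all genes tested, and a triangle is the lower bound of a gene at 0 in PBS pDCs. All 8 genes lie to the right of 0 in the first comparison with 0 filled, and 4 of 8 are filled on the left in the second.

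The 3 comparisons share libraries, since each group enters 2 of them. In YG+ against PBS pDCs, 5 of 8 genes had an unadjusted p under 0.05 and were higher, where 4.69% of all genes tested did. The 5 were Apoe, Fabp5, Plin2, Nr1h3 and Lpl. In the fit of the 4 libraries compared, the count was 2 of the 6 genes that reached the filter. There, 693 of all 7440 genes tested had such a p in either direction. Without YG+ pDC replicate 1 the log2 differences were 0.89 for Apoe, 2.5 for Fabp5, 1.3 for Plin2 and 3.08 for Nr1h3. With all 6 libraries they were 1.66, 2.56, 2.33 and 3.51. The median log2 fold change of the 8 was 2.00 (1.92 with Lpl at its bound), against 0.08 over all genes tested. In PBS pDCs against Sirpa+ DCs both pDC libraries lay below both Sirpa+ DC libraries for 6 of 8 genes, where 24.2% of all genes did. The exceptions were Abcg1 and Srebf2. The median was -3.14 (-2.54 with Lpl at its bound), against 0.08 over all genes. In YG+ pDCs against Sirpa+ DCs 3 of 8 lay wholly lower (29.1% of all genes) and Abcg1 wholly higher (32.8%), and the median was -0.68 against 0.04 over all genes. Without PBS pDC replicate 1 the called genes numbered 0 for YG+ against PBS pDCs, 5 for PBS pDCs against Sirpa+ DCs (Lpl was added) and 2 for YG+ pDCs against Sirpa+ DCs (Plin2 was added).

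Per kilobase of the longest coding transcript, Apoe was the highest of the 8 genes in every group, at 1389 ± 825 CPM per kb in YG+ pDCs, 440 ± 50.5 CPM per kb in PBS pDCs and 2364 ± 861 CPM per kb in Sirpa+ DCs (SD, n = 2 each). Abcg1 came next in both pDC groups, at 112 ± 6.65 CPM per kb in YG+ pDCs and 79 ± 11.2 in PBS pDCs, and was 81.9 ± 12.2 in Sirpa+ DCs. In Sirpa+ DCs Fabp5 stood in that place at 215 ± 110 CPM per kb, against 30.9 ± 2.63 in YG+ pDCs and 3.52 ± 4.97 in PBS pDCs, but its rank depends on the transcript length used. In Sirpa+ DCs Abcg1 and Plin2 (75.5 ± 5.29 CPM per kb) were within 1 SD of each other, and so were Srebf2 (42.7 ± 11.5) and Abca1 (32.4 ± 10.2). In YG+ pDCs Srebf2 (40.2 ± 0.488), Abca1 (31.2 ± 13), Fabp5 and Plin2 (25.9 ± 19.2) ran close together. Lpl was the lowest in every group, at 5.57 ± 4.19 CPM per kb in YG+ pDCs, 0 CPM in PBS pDCs and 7.81 ± 8.14 CPM per kb in Sirpa+ DCs.

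Macrophage and monocyte markers, summed, had the same order of group means as each of the lipid genes except Abcg1. The 11 markers counted (among them Csf1r, the C1q genes, Mertk and Lyz2) summed to 1884 and 739 CPM in the YG+ pDCs, 364 and 197 CPM in PBS pDCs, and 3851 and 6210 CPM in Sirpa+ DCs. In YG+ pDCs and in Sirpa+ DCs the library with more of these markers was the one with more Apoe. In PBS pDCs the order of Apoe depended on the scaling. Replicates 1 and 2 had 670 and 569 CPM, but 0.059% and 0.0594% of gene counts. In PBS pDCs Mertk, Fcgr1 and Timd4 were at 0 in both libraries and C1qb in replicate 2. Of 9 markers tested, 8 fell in PBS pDCs against Sirpa+ DCs (6.89% of all genes did). In YG+ pDCs against Sirpa+ DCs 2 of 9 fell (4.09% of all genes). In YG+ against PBS pDCs 0 of 9 were called, and 8 of 9 had an unadjusted p under 0.05 and were higher (4.69% of all genes). Cd68 was the exception both times, with means of 130 CPM in YG+ pDCs, 110 CPM in PBS pDCs and 140 CPM in Sirpa+ DCs. C1qa, C1qb and C1qc, which form complement C1q, summed to 559 and 190 CPM in the YG+ pDCs, 95.7 and 11.6 CPM in PBS pDCs, and 1316 and 2231 CPM in Sirpa+ DCs. Their part in the result was not tested.

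The 2 libraries of a group, which share the sort and the treatment, also differed. Medians of the 8 genes and of the markers went the same way in YG+ pDCs and Sirpa+ DCs, and opposite ways in PBS pDCs. In YG+ pDCs, replicate 1 minus replicate 2 had a median log2 difference of 0.70 over the 8 genes (6 of 8 above 0), 1.45 over the 9 macrophage markers (9 of 9 above 0) and -0.02 over all genes tested. Plin2 (1.5), Lpl (1.37) and Apoe (1.29) differed most, and Abcg1 (-0.12) and Srebf2 (-0.02) least. In Sirpa+ DCs the same difference was -0.47 over the 8 genes, -0.58 over the markers (0 of 9 above 0) and -0.03 over all genes. In PBS pDCs it was -0.50 over the 8 genes (2 of 8 above 0) and 0.90 over the markers (5 of 9 above 0). Mature DC markers also moved with the groups, at sums of 1794 and 1349 CPM in the YG+ pDCs, 727 and 562 CPM in PBS pDCs and 5979 and 4703 CPM in Sirpa+ DCs. Their part in the result was not tested either. Conventional type 1 DC markers summed to 735 and 718 CPM in the YG+ pDCs, 364 and 583 CPM in PBS pDCs and 1913 and 1788 CPM in Sirpa+ DCs. The 8 endothelium and fat cell markers summed to 256 and 335 CPM in the YG+ pDCs and 268 and 366 CPM in PBS pDCs. In Sirpa+ DCs they summed to 106 and 124 CPM. Of these markers, the fat cell droplet gene Plin1 was at 0 in all 6 libraries, as was Gpihbp1. Adipoq and Fabp4 were detected in both YG+ pDC libraries and in neither PBS pDC library. In Sirpa+ DCs Fabp4 was detected in both libraries and Adipoq in replicate 1. Cidec was detected in PBS pDC replicate 1 only.

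**Figure D3:**
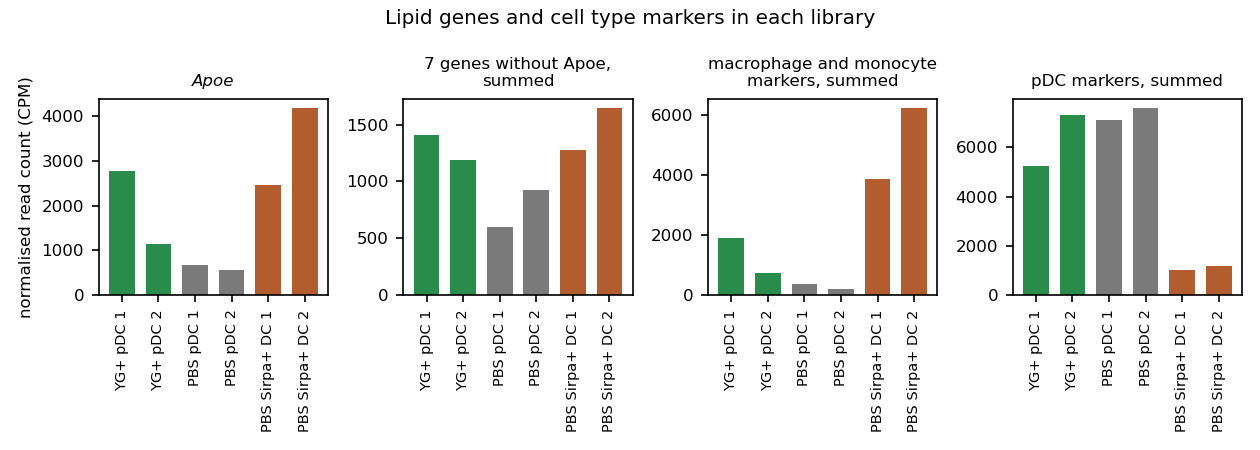
Normalised read count (CPM, axes from 0) per library of Apoe, of the other 7 lipid genes summed, of 11 macrophage and monocyte markers summed and of 10 pDC markers summed. YG+ pDC replicate 1 has 2777 CPM of Apoe and 1884 CPM of the macrophage markers, and replicate 2 has 1134 and 739 CPM. The pDC markers run from 5238 to 7587 CPM in the 4 pDC libraries.

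The rest of the pathway was read from 6 lists. The cholesterol synthesis list, whose genes are the classic targets of SREBP2, had 9 genes tested, and 0 were called in any comparison. The medians were -0.04 for YG+ against PBS pDCs, -0.42 for PBS pDCs against Sirpa+ DCs and -0.85 for YG+ pDCs against Sirpa+ DCs. Tm7sf2, a sterol reductase, had 5.62 and 3.58 CPM in YG+ pDCs against 44.6 and 13.9 CPM in PBS pDCs, and was the 1 gene of the list at an unadjusted p under 0.05 in any comparison (edgeR adjusted p = 0.384). Fdft1, squalene synthase, shows the spread in PBS pDCs, at 510 and 69.4 CPM.

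The list of SREBP control had 9 genes tested. Insig1, which holds SREBPs in the endoplasmic reticulum, had 35.1 and 57.3 CPM in YG+ pDCs against 12.8 and 18.5 CPM in PBS pDCs (edgeR adjusted p = 0.401). Srebf1, which encodes the fatty acid branch of the SREBPs and is itself an LXR target, had 103 and 111 CPM in YG+ pDCs against 274 and 167 CPM in PBS pDCs (edgeR adjusted p = 0.394). Neither difference passed, and the libraries did not overlap in either.

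The list of LXR partners and targets had 16 genes tested. In PBS pDCs against Sirpa+ DCs 2 fell, Arl4c and Mertk, and 0 rose (6.89% of all genes tested were called lower and 4.54% higher). Arl4c, a small GTPase gene induced by LXR, had 309 and 218 CPM in the YG+ pDCs, 57.4 and 104 CPM in PBS pDCs and 1193 and 1168 CPM in Sirpa+ DCs. It fell in both pDC groups against Sirpa+ DCs, with log2 differences of -2.16 ± 0.45 in YG+ pDCs (SE; edgeR adjusted p = 0.0151) and -3.81 ± 0.49 in PBS pDCs (edgeR adjusted p = 0.00114). Mertk, a receptor for dying cells that is also on the macrophage list, had 71.6 and 8.95 CPM in the YG+ pDCs, 0 and 0 CPM in PBS pDCs and 46.5 and 57.8 CPM in Sirpa+ DCs (edgeR adjusted p = 0.0317 for PBS pDCs against Sirpa+ DCs). In YG+ against PBS pDCs edgeR called 0 of 16, with 3 higher and 1 lower at an unadjusted p under 0.05, and the median was 0.27. Over all genes tested, 11.4% had such a p in either direction, and 4.69% had it and were higher. Pltp, the phospholipid transfer protein gene, did not follow Abca1, at 268 and 352 CPM in the YG+ pDCs, 434 and 377 CPM in PBS pDCs and 203 and 185 CPM in Sirpa+ DCs.

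Uptake, lysosomal release and storage were read over 15 tested genes. In PBS pDCs against Sirpa+ DCs 2 fell, where 6.89% of all genes tested were called lower. Lrp1, a receptor for Apoe-bearing particles, had 285 and 104 CPM in the YG+ pDCs, 70.2 and 53.2 CPM in PBS pDCs and 292 and 277 CPM in Sirpa+ DCs, with a log2 difference of PBS pDCs from Sirpa+ DCs of -2.24 ± 0.55 (SE; edgeR adjusted p = 0.0246). Soat1, which esterifies cholesterol for storage, had 75.9 and 59 CPM in the YG+ pDCs, 57.4 and 30.1 CPM in PBS pDCs and 182 and 213 CPM in Sirpa+ DCs, with -2.29 ± 0.49 (edgeR adjusted p = 0.0127). Npc1, which moves cholesterol out of lysosomes, had 501 and 587 CPM in the YG+ pDCs, 415 and 495 CPM in PBS pDCs and 178 and 303 CPM in Sirpa+ DCs, and did not pass in any comparison. Cd36, a scavenger receptor and fatty acid transporter gene, had 32.3 and 23.3 CPM in the YG+ pDCs, 0 and 2.31 CPM in PBS pDCs and 63.5 and 14 CPM in Sirpa+ DCs. It missed the threshold between PBS pDCs and Sirpa+ DCs (edgeR adjusted p = 0.056).

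Lipid droplet and triglyceride genes gave 10 tested. Dgat2, which makes triglyceride, fell in both pDC groups, at 2.81 and 7.16 CPM (YG+) and 12.8 and 2.31 CPM (PBS), against 76.2 and 81.7 CPM in Sirpa+ DCs. Its log2 differences from Sirpa+ DCs were -3.97 ± 0.70 in YG+ pDCs (SE; edgeR adjusted p = 0.00777) and -3.80 ± 0.82 in PBS pDCs (edgeR adjusted p = 0.0137). Unlike Plin2, Dgat2 had overlapping YG+ and PBS pDC libraries. Of 18 tested genes of fatty acid uptake and handling, Fads2, a fatty acid desaturase gene, rose in both pDC groups against Sirpa+ DCs. It had 36.5 and 42.9 CPM in the YG+ pDCs, 44.6 and 55.5 CPM in PBS pDCs and 0 and 5.98 CPM in Sirpa+ DCs (edgeR adjusted p = 0.0315 in YG+ pDCs and 0.017 in PBS pDCs). No gene of the 6 lists was called between YG+ and PBS pDCs (edgeR), and 7 of 77 were higher and 4 lower at an unadjusted p under 0.05, counting a gene once in each list that holds it. Over both directions that is 14.3%, near the 11.4% of all genes tested. Of all genes tested, 4.69% had such a p and were higher.

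**Figure D4:**
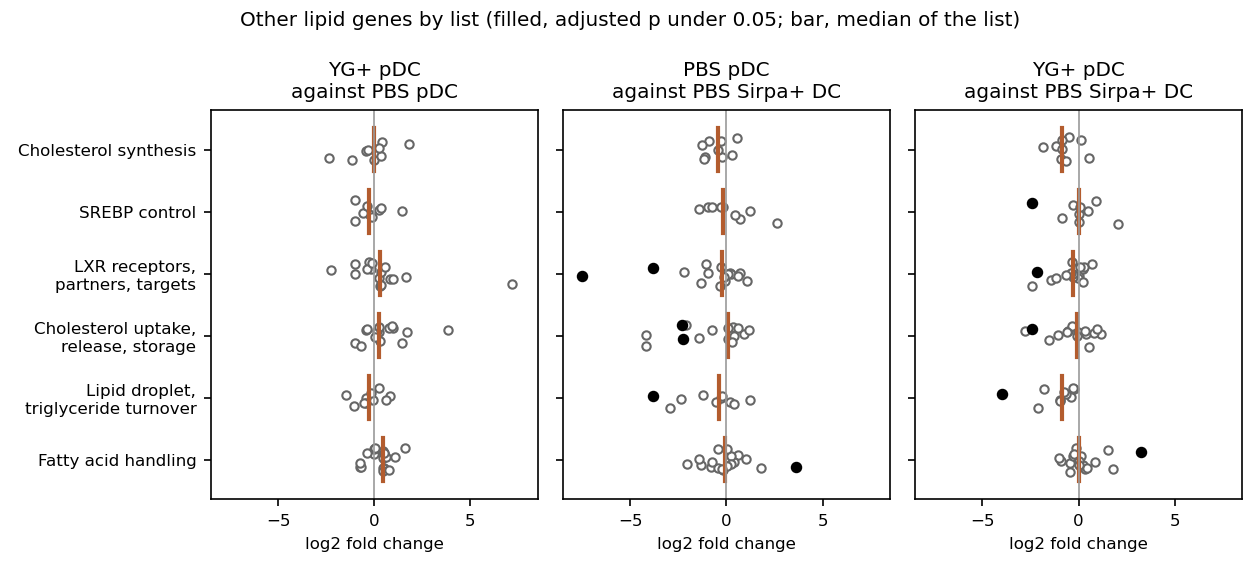
Log2 fold change (edgeR) of each tested gene in 6 lists of other lipid genes, by comparison. Filled points passed an adjusted p under 0.05 and bars are the median of a list, which lies between -0.87 and 0.45 in each panel; points beyond 5 on either side are Mertk, which is at 0 in PBS pDCs, so that its fitted fold depends on the prior count.

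For each gene the most similar profiles over the 6 libraries were taken as the smallest root mean square difference of centred log2 CPM among the 7386 genes that averaged 20 CPM or more. With so few libraries and so many genes such neighbours always exist, and they are given as a description. Apoe was nearest to Axl, a receptor kinase gene for dying cells (difference 0.21), and Trf, the transferrin gene (0.24). Axl had 289 and 161 CPM in the YG+ pDCs, 89.3 and 85.6 CPM in PBS pDCs and 410 and 628 CPM in Sirpa+ DCs. Plin2 was nearest to Sash1 (0.23) and Asap1 (0.28), Nr1h3 to Jup (0.27) and Dusp3 (0.28), and Abca1 to Dctn1 (0.12) and Vdac1 (0.17). Fabp5 was nearest to Mmp14 (0.36) and Sema4a (0.41), and Lpl to Rab20 (0.35) and Abcc3 (0.40). Abcg1, which varied least, was nearest to Ptpn23 and Sbds (0.05 each), and Srebf2 to Zfat (0.07) and Hgs (0.08), whose PBS pDC replicate 1 values were low as well.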

How the data were processed

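RNA of sorted thymic dendritic cells was extracted with TRIzol and libraries were prepared by the Ovation SoLo RNA-Seq kit for mouse, per the labels' protocols. The deposited files hold raw read counts for each gene symbol. The submitters' processing notes name bcl2fastq 2.17 and mm10. Not given in the sources used here were the aligner, counter, annotation and strand setting. Summary lines that name no gene (97.7% to 99.5% of records) stayed out of library sizes and tests. None of the 8 genes has exon bases under an exon of the opposite strand in GENCODE M21, which matched 93% of symbols and gave coordinates.

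Genes passing filterByExpr (8141) were scaled by TMM (0.924 to 1.09). The test was edgeR 4.0.16's quasi-likelihood test (glmQLFit, glmQLFTest; R 4.3.3) in 1 fit of all 6 libraries, with Benjamini-Hochberg adjustment over all genes. The 8 genes, lists and tests were chosen with earlier results of these data known. The fit was tested on simulated data for YG+ against PBS pDCs. It called 6.94% of genes set 2-fold apart, 44.2% at 4-fold, 90.4% at 8-fold and 0.0581% of unchanged genes. The changed genes were drawn at random from those tested, around their mean level over the groups. Their spread followed the fitted trend and was the same in every library. These shares therefore need not hold for genes with as few PBS pDC reads as Lpl, Nr1h3, Fabp5 and Plin2, or for libraries that spread more. From each list, the text draws on the 3 genes with the highest mean CPM and the 2 with the smallest p per comparison; a few of these are not reported here. Promoters and miRNAs are RefSeq GRCm38.p6, and no genome sequence was used. Alternatives were other scalings, no filter, a 10 CPM filter, DESeq2 1.42.0, limma-voom 3.58.1, glmTreat, fitting only the 4 libraries of a comparison, a replicate block, omission of 4 abundant non-coding genes, and leaving out each library. The other tools were Python 3.11.15, pandas 2.3.3, scipy 1.17.1 and matplotlib 3.10.9.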

Additional observations from a re-analysis of the deposited data

How the results depend on the processing

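Across 17 alternatives, 373 of 405 recomputed fold changes kept their direction and their side of the threshold, 14 were gained as calls, 8 were lost and 10 turned sign. Each loss came from leaving out a library. Without scaling factors, Abcg1 in PBS pDCs against Sirpa+ DCs became 0.02, and Abca1 and Srebf2 in YG+ pDCs against Sirpa+ DCs became 0.02 each. Over the fits that leave out a library, the ranges were -0.26 to 0.15 for Abcg1 in PBS pDCs against Sirpa+ DCs, and, in YG+ pDCs against Sirpa+ DCs, -0.59 to 0.31 for Abca1, -0.34 to 0.19 for Srebf2 and -1.66 to 1.43 for Lpl. In the fit of the 4 libraries compared, Lpl in YG+ against PBS pDCs, Lpl in PBS pDCs against Sirpa+ DCs and Nr1h3 in YG+ against PBS pDCs did not reach the filter.

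Counts of genes called depended on single libraries. In YG+ against PBS pDCs (0 genes, 0 of the 8), leaving out a library gave 0 to 870 genes, with 870 without PBS pDC replicate 2, 14 without YG+ pDC replicate 2 and 3 without PBS pDC replicate 1, and 0 to 0 of the 8. No filter gave 141 genes and 1 of the 8 (Lpl, adjusted p = 0.0254, where the range over all settings was 0.0254 to 0.999), DESeq2 45 genes (it gave no adjusted p for Plin2, Nr1h3 and Lpl) and limma-voom 0. In PBS pDCs against Sirpa+ DCs (931 genes, 4 of the 8), the range was 214 to 1297 genes and 1 to 5 of the 8. It was 214 and 1 without Sirpa+ DC replicate 2 and 316 and 2 without Sirpa+ DC replicate 1, and the fit of 4 libraries gave 580 genes. In YG+ pDCs against Sirpa+ DCs (583 genes, 1 of the 8), it was 69 to 1487 genes and 0 to 2 of the 8. Each omission moved this count, to 271 and 176 genes without YG+ pDC replicates 1 and 2, 1487 and 1467 without PBS pDC replicates 1 and 2, and 69 and 115 without Sirpa+ DC replicates 1 and 2. A group left with 1 library is assumed to vary like the others. In this comparison no filter gave 894 genes, and the fit of 4 libraries 1480 genes and 2 of the 8. The cause was not tested.

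The labels do not say whether replicate numbers pair libraries across groups. Deviations of same-numbered libraries correlated at -0.12 (YG+ against PBS pDCs), 0.3 (PBS pDCs against Sirpa+ DCs) and -0.1 (YG+ pDCs against Sirpa+ DCs). Such correlations cannot decide whether the libraries were paired. With a replicate block, 0, 942 and 635 genes were called, and 0, 5 and 1 of the 8 genes, with Lpl added in PBS pDCs against Sirpa+ DCs (adjusted p = 0.0481). Depth limits Lpl, Nr1h3, Fabp5 and Plin2 most, since PBS pDCs held at most 6 reads of each.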
